A study of Drosophila melanogaster with 12 samples.

Results

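Double RNAi of row and BEAF-32 was compared with no treatment in Drosophila melanogaster S2 cells, a line that was derived from embryos and resembles macrophages. The comparison used 6 of the 12 libraries of the series, 3 from each group, and covered every gene that passed a filter on low counts, 7377 of the 16718 genes in the table. Cells of the double RNAi group were given double-stranded RNA (dsRNA) against both transcripts, per the labels' protocols first at 4 µg per ml of cells and 2 days later at 8 µg per ml, and were collected after a further 2 days. Control cells were given no dsRNA, so the response to dsRNA as such and the response to loss of the targets cannot be told apart. The labels do not say whether the dose in double RNAi was that of each dsRNA or of both together. The remaining 6 libraries came from cells given dsRNA against row alone or against BEAF-32 alone, 3 each, and enter below where double RNAi was set against them. Transcripts were counted from their polyadenylated ends by 3' RNA-seq, and protein was not measured.

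ROW, the product of row (relative of woc), is a zinc finger protein that belongs to a chromatin complex with WOC and the heterochromatin protein family member HP1c, which sits mostly at active genes in euchromatin. BEAF-32 is an insulator protein that binds DNA near promoters, often of housekeeping genes and at the borders of chromatin domains, where it can share its sites with the transcription factor Dref. RNA interference in fly cells works by dicing long dsRNA into short guides that direct cleavage of the matching transcript, so the first effect of the treatment is on the level of the target mRNA. Per the series title, the study asked how the 2 proteins cooperate at genes over long distances.

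The 6 libraries held 2276507 to 3963412 counts, with double RNAi replicate 3 the deepest and double RNAi replicate 1 the shallowest. The pairwise correlation of log2 CPM, which gives each count relative to the scaled total of its library, was 0.955 to 0.962 between control libraries, 0.950 to 0.958 between double RNAi libraries and 0.946 to 0.959 between the groups, so libraries of different groups were about as alike as libraries of the same group. The first principal component held 25.4% of the variance of the 6 libraries. It placed the controls at -21.9 to -7.02 and the double RNAi libraries at 1.73 to 22.7, with double RNAi replicate 3 nearest to the controls. Ribosomal protein genes took 38.3% of the counts in that library and 39.7% to 42.0% in the other 5. Nothing in the labels says that replicates came from separate cultures, so the p-values measure only the spread among these libraries, and that spread may be technical.

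Both targets were lower in double RNAi than in control, and neither was lost. BEAF-32 (2R) had 66.0, 42.8 and 62.9 CPM in the control libraries and 26.1, 33.3 and 30.4 CPM in the double RNAi libraries. Every double RNAi library was below every control, and the mean was 52.3% of the control mean. BEAF-32 fell by 0.93 on the log2 scale (SE 0.22, adjusted p = 0.0322, n = 3 per group, by the quasi-likelihood test of edgeR with p-values adjusted after Benjamini and Hochberg over all tested genes), and this call was lost when any 1 of 5 libraries was left out (adjusted p = 0.0665 to 0.243 without them, and 0.0094 without control replicate 2), with log2 changes of -1.10 to -0.81 throughout. The row transcript (2R) stood at 52.4, 47.2 and 52.5 CPM in control and at 34.5, 34.1 and 25.4 CPM in double RNAi. Here too the groups did not overlap. The mean was 61.9% of control and the log2 change was -0.71 (SE 0.22), which did not pass the threshold of 0.05 (adjusted p = 0.202, edgeR).

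The dsRNAs given alone left less of each target transcript on average. BEAF-32 had 23.4, 24.7 and 14.9 CPM in BEAF-32 RNAi, and row had 22.3, 33.1 and 23.2 CPM in row RNAi. The difference of double RNAi from the single RNAi was 0.51 on the log2 scale for BEAF-32 (95% interval 0.05 to 0.98, adjusted p = 0.569, edgeR) and 0.25 for row (95% interval -0.21 to 0.70, adjusted p = 0.935, edgeR). Neither difference passed the threshold.

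Few genes passed the threshold in double RNAi. Of the 7377 tested genes 20 were called at an adjusted p under 0.05, which is 0.271% of them. Of these, 4 were higher in double RNAi (0.0542% of tested genes) and 16 were lower (0.217%). Before adjustment 637 genes had p under 0.05, 301 higher and 336 lower. The groups of 3 did not overlap in 968 genes, 13.1% of those tested, of which 481 were higher and 487 lower in double RNAi, so the excess of lower over higher genes among the calls was not seen in that wider set. Across all tested genes 3681 lay above a log2 change of 0 and 3696 below, and the median was -0.00. The called genes differed between groups by 1.26-fold to 4.71-fold, and their mean level over the 6 libraries was 11.9 to 560 CPM. The median SE of the log2 change was 0.471 in the third of genes with the lowest level, where 2 were called, 0.245 in the middle, where 7 were called, and 0.144 in the third with the highest level, where 11 were called.

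**Figure D1:**
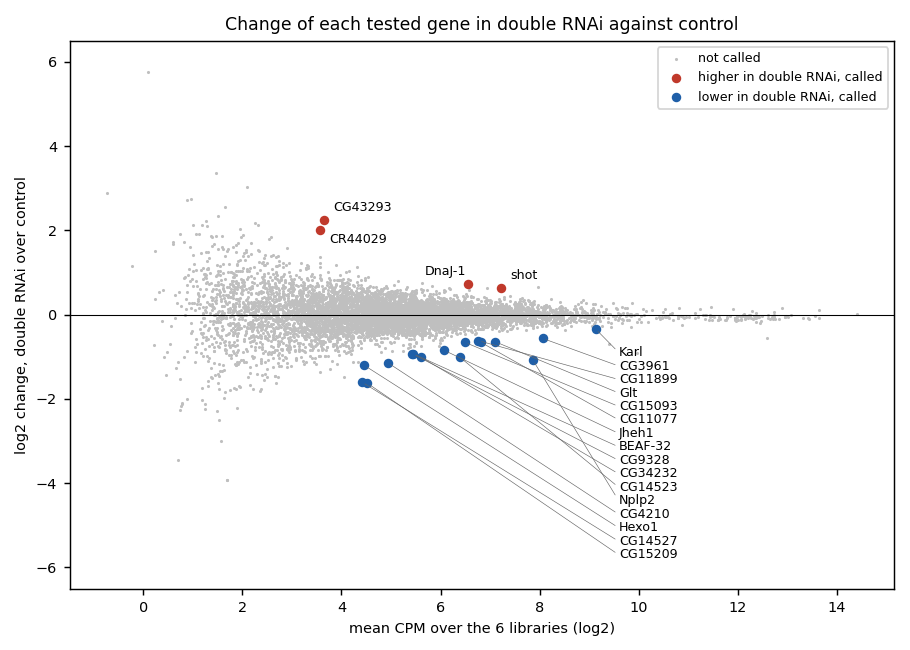
Each point is 1 of the 7377 tested genes, with its mean level over the 6 libraries on the horizontal axis (CPM, log2 scale) and its log2 change in double RNAi over control on the vertical axis. The 4 called genes above 0 (red) and 16 below (blue) are named, and the grey cloud of genes not called widens towards low levels, where the SE is larger.

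The 4 higher genes were 2 at low level whose products are not described here, a co-chaperone gene and a cytoskeletal linker gene. CG43293 (3L) had 4.56, 3.75 and 4.87 CPM in control and 21.7, 19.8 and 20.9 CPM in double RNAi. Its double RNAi values stayed close together and all lay far above the controls, and it rose 4.71-fold (log2 2.24, SE 0.41, adjusted p = 0.00212, edgeR). CR44029 (4), annotated as an antisense RNA, had 4.18, 4.68 and 5.21 CPM in control and 19.0, 24.0 and 14.4 CPM in double RNAi. It rose 4.02-fold (log2 2.01, SE 0.43, adjusted p = 0.0121, edgeR), with every treated library above every control.

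DnaJ-1, which encodes an Hsp40 co-chaperone of Hsp70, had 64.9, 77.1 and 70.9 CPM in control. In double RNAi it had 122, 117 and 114.8 CPM, and it rose 1.66-fold (log2 0.73, SE 0.14, adjusted p = 0.00238, edgeR). The gap between its groups was wider than the range within either. The gene shot, which encodes the spectraplakin that links actin filaments to microtubules, had 115.4, 134 and 101 CPM in control and 168, 216 and 159 CPM in double RNAi. It rose 1.54-fold (log2 0.63, SE 0.13, adjusted p = 0.0114, edgeR), with double RNAi replicate 2 well above the other 2.

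Of the 16 lower genes, Nplp2, which encodes a precursor of neuropeptide-like peptides, had 287, 336 and 323 CPM in control and 165, 168 and 119 CPM in double RNAi. Its highest double RNAi value lay well below its lowest control, and it fell by 1.08 on the log2 scale, 2.11-fold (SE 0.12, adjusted p = 8.43e-07, edgeR), the smallest p of the comparison. Glt encodes glutactin, a glycoprotein of basement membranes. It had 148, 179 and 174 CPM in control and 105, 125 and 93.7 CPM in double RNAi, and fell by 0.64 on the log2 scale (SE 0.13, adjusted p = 0.0066, edgeR). Karl, which encodes a lipocalin, a small carrier protein of the extracellular space, had the smallest change of the 20 genes. It had 665, 663 and 550 CPM in control and 498, 494 and 494 CPM in double RNAi (log2 -0.34, SE 0.08, adjusted p = 0.0419, edgeR), so that control replicate 3 lay nearer to the treated libraries than to the other controls.

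A pair of neighbouring genes for neprilysin-like metallopeptidases, a family of membrane enzymes that cleave short peptides, both fell. CG14523 (3R), named Nepl19 in the annotation, had 121, 91.5 and 122 CPM in control and 56.3, 57.7 and 52.99 CPM in double RNAi. CG14527 (3R), named Nepl20, had 34.5, 22.8 and 38.9 CPM in control and 6.201, 13.05 and 11.99 CPM in double RNAi. The groups did not overlap in either gene. CG14523 fell by 1.01 on the log2 scale (SE 0.16, adjusted p = 0.000263, edgeR) and CG14527 by 1.60 (SE 0.33, adjusted p = 0.00718, edgeR). The table listed 28 neprilysin-like genes, of which 6 passed the filter and 11 had 0 counts in all libraries. The other 4 tested members, CG9505, CG31918, CG14528 and CG14526, were not called, and CG9505 had the largest change of these in the opposite direction (log2 0.60, SE 0.32, adjusted p = 0.614, edgeR). The sources used here do not say how reads that match several copies of this family were counted.

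The lower gene CG3961, which encodes a long-chain acyl-CoA synthetase that activates fatty acids, had 336, 300 and 323 CPM in control and 195, 203 and 248 CPM in double RNAi. CG11899, which encodes phosphoserine aminotransferase of the serine synthesis pathway, had 154, 109 and 131 CPM in control and 89.0, 80.8 and 86.3 CPM in double RNAi. CG15093, which encodes 3-hydroxyisobutyrate dehydrogenase of valine breakdown, had 104, 109 and 119 CPM in control and 60.7, 59.8 and 87.0 CPM in double RNAi. The groups of all 3 genes were apart, in CG15093 with double RNAi replicate 3 closest to the controls. The log2 changes were -0.56 for CG3961 (SE 0.10, adjusted p = 0.00155, edgeR), -0.62 for CG11899 (SE 0.14, adjusted p = 0.0201, edgeR) and -0.65 for CG15093 (SE 0.15, adjusted p = 0.0352, edgeR).

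Jheh1 encodes an epoxide hydrolase that inactivates juvenile hormone. It had 83.9, 85.0 and 91.1 CPM in control and 51.4, 50.9 and 42.9 CPM in double RNAi, and fell by 0.85 on the log2 scale (SE 0.16, adjusted p = 0.00238, edgeR). Its neighbour Jheh2, of the same family, was not called (log2 -0.31, SE 0.19, adjusted p = 0.679, edgeR). Hexo1, which encodes a hexosaminidase that removes amino sugars from glycans, had 30.7, 33.1 and 28.2 CPM in control and 9.74, 18.9 and 11.5 CPM in double RNAi (log2 -1.20, SE 0.29, adjusted p = 0.0398, edgeR). CG11077, on chromosome 4 and named Mpv17 in the annotation, belongs to a family of organelle membrane proteins. It fell by 0.66 on the log2 scale (SE 0.13, adjusted p = 0.00609, edgeR), from a mean of 138 CPM (SD 8.64) to 87.5 CPM (SD 2.86).

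The other lower genes are described by their values only, since the roles of their products are left out here. CG15209 (X) had 34.9, 37.5 and 31.3 CPM in control and 15.9, 5.89 and 11.7 CPM in double RNAi, and fell by 1.62 on the log2 scale (SE 0.30, adjusted p = 0.00226, edgeR), the largest fall of the 16. CG34232 (2R) had 91.9, 46.9 and 57.0 CPM in control and 24.8, 32.0 and 38.8 CPM in double RNAi (log2 -1.01, SE 0.22, adjusted p = 0.0134, edgeR). Control replicate 1 stood apart from the other controls in CG34232. Means were 56.8 CPM (SD 7.76) and 29.7 CPM (SD 4.69) for CG9328, which fell by 0.93 on the log2 scale (SE 0.21, adjusted p = 0.0214, edgeR). They were 41.8 CPM (SD 9.03) and 19.3 CPM (SD 5.11) for CG4210, which fell by 1.14 (SE 0.28, adjusted p = 0.0427, edgeR). In all 20 called genes the 3 double RNAi libraries lay on 1 side of the 3 controls. They were called for their difference from control, so this was largely fixed in advance and adds no support. Over all tested genes the groups were apart in 968 of 7377 (13.1%).

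**Figure D2:**
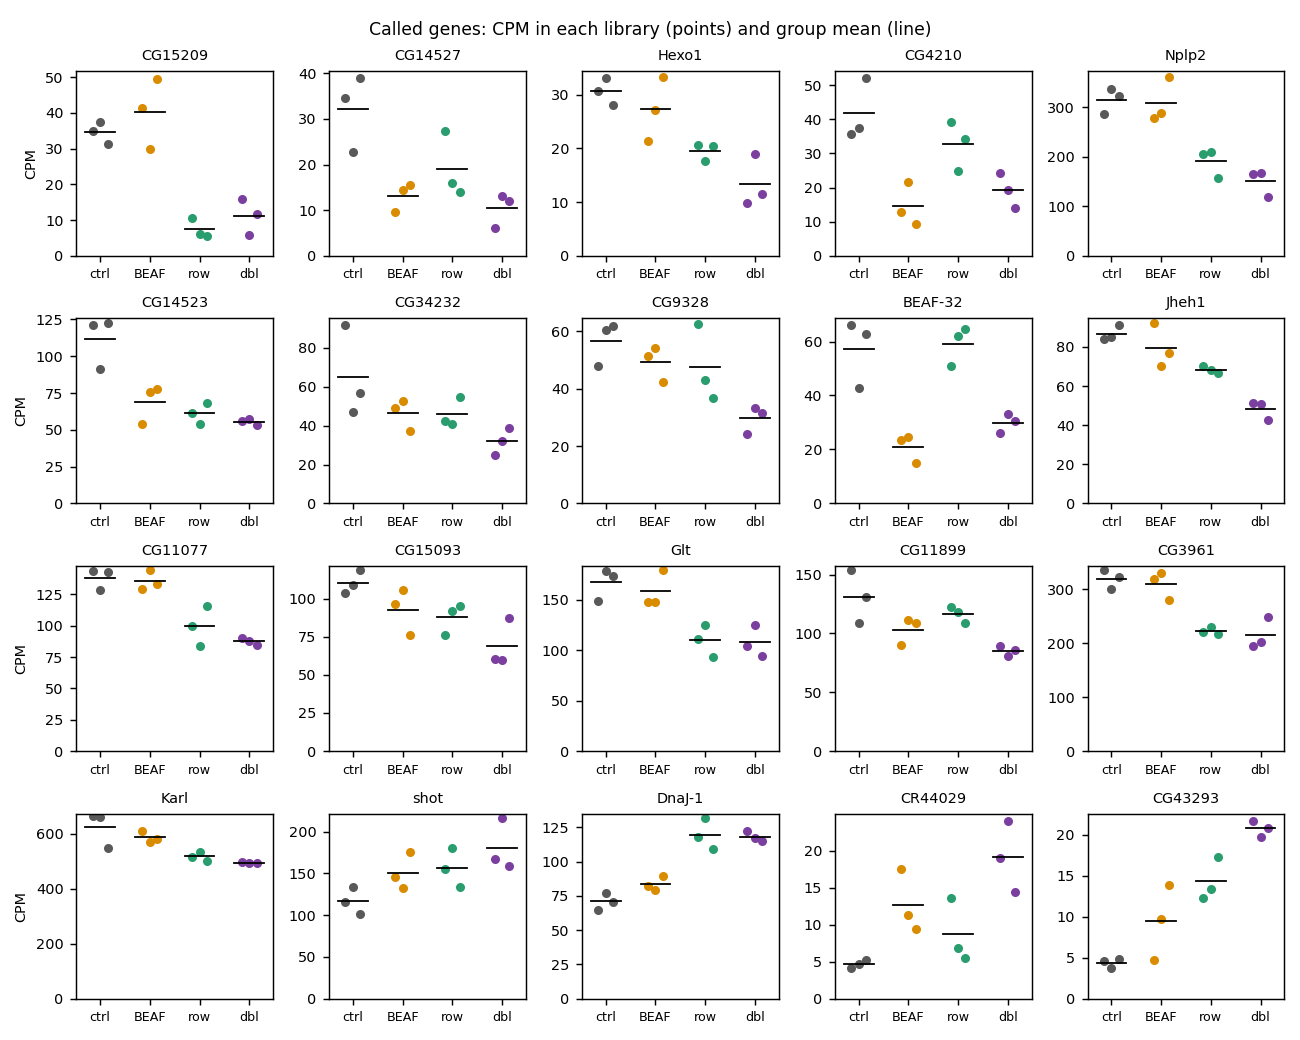
Each panel shows 1 of the 20 called genes, ordered from the largest fall to the largest rise, with its level in CPM in each library (points) and the mean of each group (line), for control (ctrl), BEAF-32 RNAi (BEAF), row RNAi (row) and double RNAi (dbl). In every panel the double RNAi points are clear of the control points, the difference for which these genes were called. The single RNAi groups sit with the controls in some panels (BEAF-32 RNAi in Nplp2) and with double RNAi in others (row RNAi in DnaJ-1).

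Reads of overlapping genes may limit some of these values. Of the 20 called genes 14 overlap another annotated gene, mostly in antisense orientation. Overlap was read from whole gene spans, introns included, so it does not show that the transcript ends of both partners overlap. The sources used here do not state if the counting was stranded, so reads from any shared stretch cannot be assigned to 1 partner. CR44029 lies opposite unc-13, which encodes a synaptic vesicle priming factor and was not called (log2 0.18, SE 0.15, adjusted p = 0.831, edgeR). CG43293 lies opposite D19A, which was not called and had a change of the other sign (log2 -0.38, SE 0.31, adjusted p = 0.806, edgeR). CG15209 lies opposite sbr, the gene of an mRNA export receptor (log2 -0.43, SE 0.25, adjusted p = 0.662, edgeR), which was not called. Both called neprilysin-like genes overlap CG33203 in the annotation, CG14523 on the same strand and CG14527 on the opposite strand, so their counts may include its reads or the reverse.

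A further 7 genes had an adjusted p from 0.05 up to 0.10, 2 with higher and 5 with lower values in double RNAi. The higher ones both encode proteins of the cytoskeleton. The beta-heavy spectrin gene kst had 33.0, 34.4 and 42.8 CPM in control and 62.0, 62.7 and 60.4 CPM in double RNAi (log2 0.75, SE 0.20, adjusted p = 0.0885, edgeR). The groups were well apart, and the treated libraries nearly equal. Means of pigs, whose product links actin and microtubules, were 173 and 228 CPM (log2 0.41, SE 0.10, adjusted p = 0.0818, edgeR). On the other side stood CG4398 (log2 -0.86), CG1092 (log2 -0.28), the acetylcholine receptor subunit gene nAChRbeta3 (log2 -0.35), the ribosomal protein gene RpS20 (log2 -0.25) and the peroxiredoxin gene Prx2540-1 (log2 -0.68), with adjusted p = 0.078 to 0.0818 by edgeR's test.

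The largest differences that did not pass the threshold, among genes with a mean of at least 10 CPM and groups that did not overlap, were of similar size to those of called genes. Above 0 were wun2 (log2 1.38, SE 0.45), which encodes a lipid phosphate phosphatase, CG12320 (log2 1.23, SE 0.39), the noncoding CR45973 (log2 1.17, SE 0.35), CG17328 (log2 1.16, SE 0.52) and ida (log2 1.13, SE 0.30), which encodes a subunit of the anaphase-promoting complex. Below 0 were CG31111 (log2 -1.48, SE 0.39), CG8157 (log2 -1.36, SE 0.40), CG5167 (log2 -1.30, SE 0.39), CG43107 (log2 -1.18, SE 0.46) and the septin gene Sep5 (log2 -1.13, SE 0.33). Their adjusted p was 0.1 to 0.522 by edgeR's test. These 10 genes had lower levels than most called ones, and the highest of their group means was 27.5 CPM, in ida.

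The single RNAi groups give the context of the 20 calls. All comparisons with control share the same 3 control libraries, so the values are given side by side and their likeness is not a result. Over all tested genes 14 were called in row RNAi against control (0.19%) and 2 in BEAF-32 RNAi against control (0.0271%).

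DnaJ-1 had a log2 change of 0.73 in double RNAi, 0.75 in row RNAi and 0.23 in BEAF-32 RNAi. CG3961 had -0.56, -0.52 and -0.05 in the same order, and Glt had -0.64, -0.61 and -0.08. CG15209 had -1.62, -2.21 and 0.22, and its levels in row RNAi (10.7, 6.204 and 5.56 CPM) overlapped those in double RNAi. CG4210 had the reverse order, with -1.14 in double RNAi, -0.35 in row RNAi and -1.51 in BEAF-32 RNAi (12.7, 21.5 and 9.37 CPM). Both neprilysin-like genes had lower means in each single group, with log2 changes of -0.86 in row RNAi and -0.68 in BEAF-32 RNAi for CG14523 and of -0.75 and -1.27 for CG14527.

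In other genes the double RNAi libraries stood beyond both single groups. All 3 lay beyond all 9 other libraries in 5 of the 20 genes, namely CG43293, Jheh1, CG11899, CG9328 and Karl. The 20 genes were called for their difference from control, so part of this condition was met in advance. Its share over all tested genes was not computed, so the number of such genes is not a result. In the direct tests none of these 5 genes was called against row RNAi, and only Jheh1 was called against BEAF-32 RNAi. CG43293 had 12.3, 13.4 and 17.3 CPM in row RNAi and 4.77, 9.68 and 13.9 CPM in BEAF-32 RNAi, between control and double RNAi. Jheh1 had 70.3, 68.2 and 66.7 CPM in row RNAi and 92.2, 70.2 and 76.7 CPM in BEAF-32 RNAi, all above its highest value in double RNAi. CG9328 had -0.26 in row RNAi and -0.21 in BEAF-32 RNAi against -0.93 in double RNAi on the log2 scale.

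**Figure D3:**
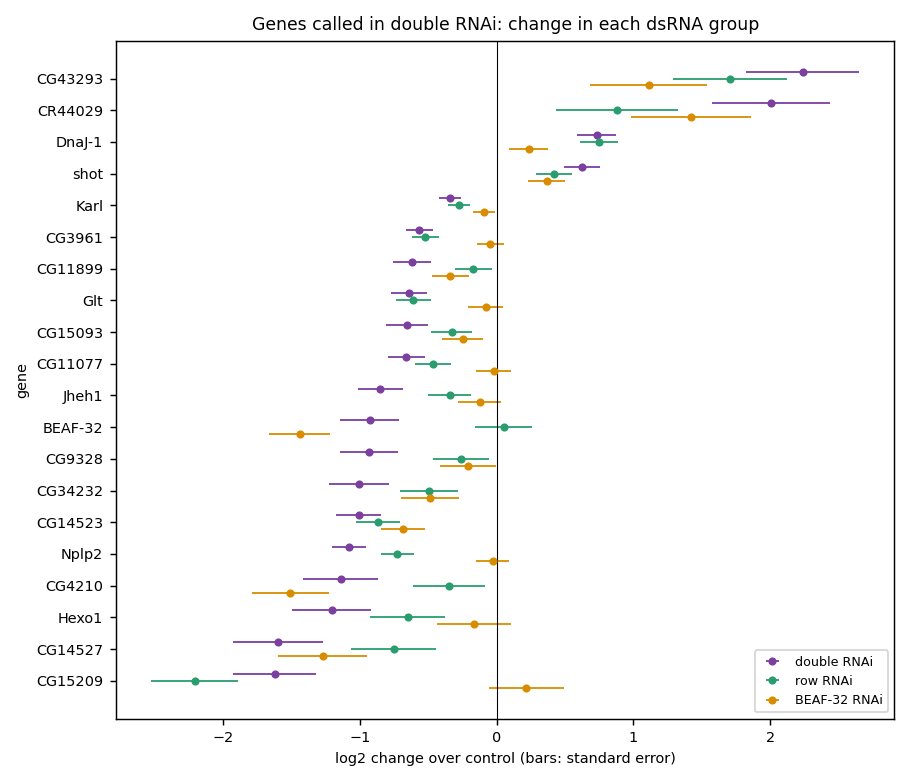
Log2 change over control of the 20 genes called in double RNAi, in double RNAi (purple), row RNAi (green) and BEAF-32 RNAi (orange), with bars for the SE. Green and purple points nearly coincide for DnaJ-1, CG3961 and Glt, the orange point is the farthest from 0 for BEAF-32 and CG4210, and the purple point is the farthest from 0 for CG43293, Jheh1 and CG9328. All 3 changes of a gene use the same 3 control libraries.

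Direct tests between the treated groups called fewer genes. Against BEAF-32 RNAi, 9 genes were called in double RNAi (0.122% of tested genes), 1 higher and 8 lower. The higher one was Act5C, which encodes a cytoplasmic actin. The lower ones were Nplp2 (log2 difference -1.05, adjusted p = 1.69e-06), CG15209 (-1.84, adjusted p = 0.000345), CG3961 (-0.52, adjusted p = 0.00865), CG11077 (-0.64, adjusted p = 0.0126) Jheh1 (-0.73, adjusted p = 0.0343), Prx2540-1, CG1092 and CG5254, all by edgeR's test.

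Against row RNAi no gene was called in double RNAi (0%) by edgeR's test, with 458 genes at an unadjusted p under 0.05, and DESeq2 and limma-voom called 0 as well. With no filter on low counts 3 genes were called, BEAF-32, He and SPARC, and with only the 6 libraries of these groups in the fit 2, BEAF-32 and CR43264. The intervals of single genes were wide relative to their changes. The difference of double RNAi from row RNAi in DnaJ-1 was -0.02 on the log2 scale (95% interval -0.29 to 0.25), and in CG43293 it was 0.53 (95% interval -0.20 to 1.27). In Nplp2, where row RNAi had 206, 211 and 156 CPM, it was -0.35 (95% interval -0.61 to -0.10, adjusted p = 0.63, edgeR).

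The interaction term asked whether the change in double RNAi differed from the sum of the changes under each dsRNA alone on the log2 scale. No gene was called (0%) by edgeR's test, with 326 genes at an unadjusted p under 0.05 and a lowest adjusted p of 0.512, and DESeq2 and limma-voom called 0. For Nplp2 the term was -0.32 (95% interval -0.68 to 0.03), for CG14523 0.54 (95% interval 0.08 to 1.01) and for CG43293 -0.58 (95% interval -1.71 to 0.54).

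Gene lists are described by counts and medians beside those of all tested genes, and they were drawn up with earlier results of these data known. Of all 7377 tested genes 3681 lay above 0 and 3696 below, the median log2 change was -0.00, 637 had an unadjusted p under 0.05 and 20 were called (0.271%). The list of HP1c complex and HP1 family genes is mixed and is not 1 complex. Of its 12 genes 11 were tested, 2 lay above 0 and 9 below, and the median log2 change was -0.13, with 0 called. Those below 0 include row, itself a target of the dsRNA. HP1c, a partner of ROW, had 63.8, 38.7 and 52.5 CPM in control and 47.0, 28.6 and 38.6 CPM in double RNAi (log2 -0.44, SE 0.21, adjusted p = 0.547, edgeR), with groups that overlapped. The gene of the other partner, woc, had means of 120 and 118 CPM (log2 -0.02, SE 0.14, adjusted p = 0.991, edgeR). The FACT histone chaperone subunit genes dre4 and Ssrp had log2 changes of -0.23 (SE 0.10) and -0.14 (SE 0.13).

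Among insulator and promoter boundary proteins 25 of 26 listed genes were tested, 9 lay above 0 and 16 below, and the median was -0.08 (0.003 without double RNAi replicate 1). The called one was BEAF-32 itself. Dref, which encodes the factor whose sites overlap those of BEAF-32, had 53.5, 49.97 and 61.2 CPM in control and 34.99, 32.8 and 31.4 CPM in double RNAi. The groups were far apart relative to their ranges. The log2 change was -0.73 (SE 0.20, adjusted p = 0.103, edgeR), past the threshold in DESeq2's test alone, and it was -0.18 in row RNAi and 0.01 in BEAF-32 RNAi. The cohesin loader gene Nipped-B stood on the other side (log2 0.33, SE 0.14, adjusted p = 0.508, edgeR).

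Of the heat shock chaperones, which refold proteins under stress, 14 of 24 listed genes were tested, and 12 lay above 0 against 2 below, with a median of 0.18. DnaJ-1 was the called one, and 6 of the 14 had an unadjusted p under 0.05, all above 0, against 637 of 7377 over all tested genes. Hsp23 had 360, 458 and 416 CPM in control and 528, 495 and 499 CPM in double RNAi (log2 0.30, SE 0.09, adjusted p = 0.181, edgeR), and Hsc70Cb had a log2 change of 0.24 (SE 0.10, adjusted p = 0.5, edgeR). The summed level of the list was 4653 to 4866 CPM in control and 5178 to 5489 CPM in double RNAi, so it was higher in every treated library. A large part of that sum was Hsc70-4, which was not called (means of 2290 and 2522 CPM, log2 0.14, SE 0.06). Changes were smaller than their SE in Hsp22 (log2 0.22, SE 0.47), Hsp27 (log2 0.15, SE 0.32) and Hsp70Bc (log2 -0.03, SE 0.61), among others. The median of the list was 0.27 in row RNAi and 0.04 in BEAF-32 RNAi, over the same control libraries. Whether dsRNA exposure, culture conditions or the targets had a part in this was not tested.

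The JNK pathway, a stress kinase cascade, had 18 of its 21 tested genes above 0 and a median of 0.21, with 0 called. The phosphatase gene puc, which is both a target and an inhibitor of the pathway, had 33.8, 51.8 and 45.2 CPM in control and 83.3, 69.9 and 57.8 CPM in double RNAi (log2 0.67, SE 0.20, adjusted p = 0.168, edgeR). The Fos homologue gene kay had means of 127 and 163 CPM (log2 0.36, SE 0.12, adjusted p = 0.244, edgeR), and the metalloproteinase gene Mmp1 had means of 7.53 and 16.3 CPM (log2 1.13, SE 0.37, adjusted p = 0.251, edgeR). The groups did not overlap in these 3 genes, and none passed the threshold. They were the only ones of the 21 with groups apart, a share near that of all tested genes (968 of 7377). Among apoptosis genes 10 of 14 lay above 0 with a median of 0.19 and 0 called. The initiator caspase gene Dronc had means of 13.8 and 26.3 CPM (log2 0.93, SE 0.29, adjusted p = 0.202, edgeR), and the stress-induced transcription factor gene Xrp1 had 304 and 373 CPM (log2 0.30, SE 0.09, adjusted p = 0.183, edgeR).

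Markers of blood cell types were read as a check of the line and of its state. Of 23 plasmatocyte (macrophage) markers 18 were tested, and their summed level was 3174 to 3229 CPM in control and 2728 to 2956 CPM in double RNAi. Of these 18, 7 lay above 0 and 11 below, the median was -0.05 (0.02 without double RNAi replicate 3) and Glt was the called one. The peroxidasin gene Pxn had 578, 557 and 619 CPM in control and 463, 479 and 508 CPM in double RNAi (log2 -0.27, SE 0.08, adjusted p = 0.181, edgeR), with groups apart. Hml (log2 0.23, SE 0.16) and srp (log2 0.22, SE 0.16) also had groups apart but were higher, and neither was called. The groups were apart in 5 of the 18 genes, against 968 of all 7377 tested. A large part of the summed level was that of Cg25C (means of 866 and 750 CPM) and SPARC (750 and 651 CPM), neither of them called. The plasmatocyte genes NimC2, NimA and gcm had 0 counts in all libraries. The crystal cell genes lz and PPO1 and the fat body genes Lsp2, Lsp1alpha, Fbp1 and Fbp2 also had 0 counts. The 3 tested crystal cell markers all lay below 0 and the 4 tested markers of other tissues were split 2 to 2, with 0 called. In bulk RNA, fewer cells of a type and less RNA per cell cannot be told apart.

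The lamellocyte list, which covers a flat, cytoskeleton-rich blood cell type, had 13 of its 17 genes tested, 12 above 0 and 1 below, with a median of 0.14 and shot as the called one. Its summed level was 1450 to 1535 CPM in control and 1560 to 1762 CPM in double RNAi. The filamin gene cher had 163, 166 and 184 CPM in control and 196, 247 and 218 CPM in double RNAi (log2 0.36, SE 0.11, adjusted p = 0.183, edgeR), and every treated library was above every control. The listed lamellocyte genes l(3)mbn and Cyp4g15 had 0 counts in all libraries, and the lamellocyte marker atilla had 0 CPM in both control and double RNAi. In the wider list of actin cytoskeleton genes 17 of 31 lay above 0, the median was 0.02, and shot was again the called one, while the gelsolin gene Gel had 161, 168 and 179 CPM in control and 139, 126 and 132 CPM in double RNAi (log2 -0.36, SE 0.12, adjusted p = 0.273, edgeR).

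Most other lists were centred near 0. Basement membrane and matrix genes had 8 of 16 above 0 (median -0.01), with Glt called. Peroxisome genes had 9 of 19 (median -0.07), with CG11077 called. Antioxidant enzymes had 9 of 19 above 0 (median -0.05) and the RNA interference machinery 12 of 18 (median 0.03), each with 0 called. In the last list AGO1, which acts mainly in the microRNA pathway, had a log2 change of 0.32 (SE 0.13, adjusted p = 0.496, edgeR), and Dcr-2, which dices long dsRNA, had 33.8, 35.9 and 37.9 CPM in control and 47.4, 49.3 and 42.4 CPM in double RNAi (log2 0.36, SE 0.20, adjusted p = 0.632, edgeR). Trax went the other way, with means of 28.5 CPM in control and 20.0 CPM in double RNAi (log2 -0.51, SE 0.26, adjusted p = 0.598, edgeR). The immune Toll and Imd pathways had 16 of 25 above 0 (median 0.02), the JAK/STAT pathway 9 of 12 (median 0.16), and hypoxia response and glycolysis 10 of 22 (median -0.00), each with 0 called. Lysosomal hydrolases had 6 of 15 above 0 (median -0.04), with Hexo1 called. The unfolded protein and integrated stress response had 16 of 24 above 0 (median 0.02) and 0 called. In it the BiP gene Hsc70-3 had 623, 682 and 652 CPM in control and 666, 848 and 849 CPM in double RNAi (log2 0.27, SE 0.08, adjusted p = 0.173, edgeR). Cell cycle and DNA replication genes had 11 of 51 above 0 and 40 below (median -0.13) with 0 called, and a summed level of 4075 to 4273 CPM in control and 3698 to 4116 CPM in double RNAi.

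The lists of serine synthesis, branched-chain amino acid breakdown, lipid synthesis and juvenile hormone genes each held 1 called gene. Over all 7377 tested genes 20 were called (0.271%). The lists were drawn up with earlier results of these data known, so a call in each is not a result about them. In serine synthesis and transsulfuration 6 of 11 tested genes lay above 0 (median 0.01), in branched-chain amino acid breakdown 8 of 15 (median 0.01), in lipid synthesis and acyl-CoA synthetases 11 of 17 (median 0.06), and in juvenile hormone and ecdysone 11 of 18 (median 0.13, and -0.05 without double RNAi replicate 2). The called members CG11899, CG15093, CG3961 and Jheh1 were all lower. Within the lipid list the fatty acid synthase gene FASN1 had 206, 206 and 177 CPM in control and 245, 218 and 274 CPM in double RNAi (log2 0.33, SE 0.11, adjusted p = 0.268, edgeR). The acetyl-CoA carboxylase gene ACC had means of 64.5 and 89.6 CPM (log2 0.47, SE 0.16, adjusted p = 0.28, edgeR). Neither passed the threshold. On the lower side, mdy, which encodes a diacylglycerol acyltransferase, had means of 23.0 and 12.8 CPM (log2 -0.86, SE 0.34, adjusted p = 0.465, edgeR), and the lipid droplet gene Lsd-1 had means of 19.0 and 10.3 CPM (log2 -0.83, SE 0.37, adjusted p = 0.511, edgeR). In the branched-chain list CG17691 had means of 42.0 and 22.8 CPM (log2 -0.87, SE 0.25, adjusted p = 0.134, edgeR). The groups did not overlap in mdy, Lsd-1 or CG17691, and none was called. Of these, mdy and Lsd-1 were chosen after their values were seen. Groups were apart in 7 of the 17 tested lipid genes and in 5 of the 15 branched-chain genes, against 968 of all 7377 tested genes.

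**Figure D4:**
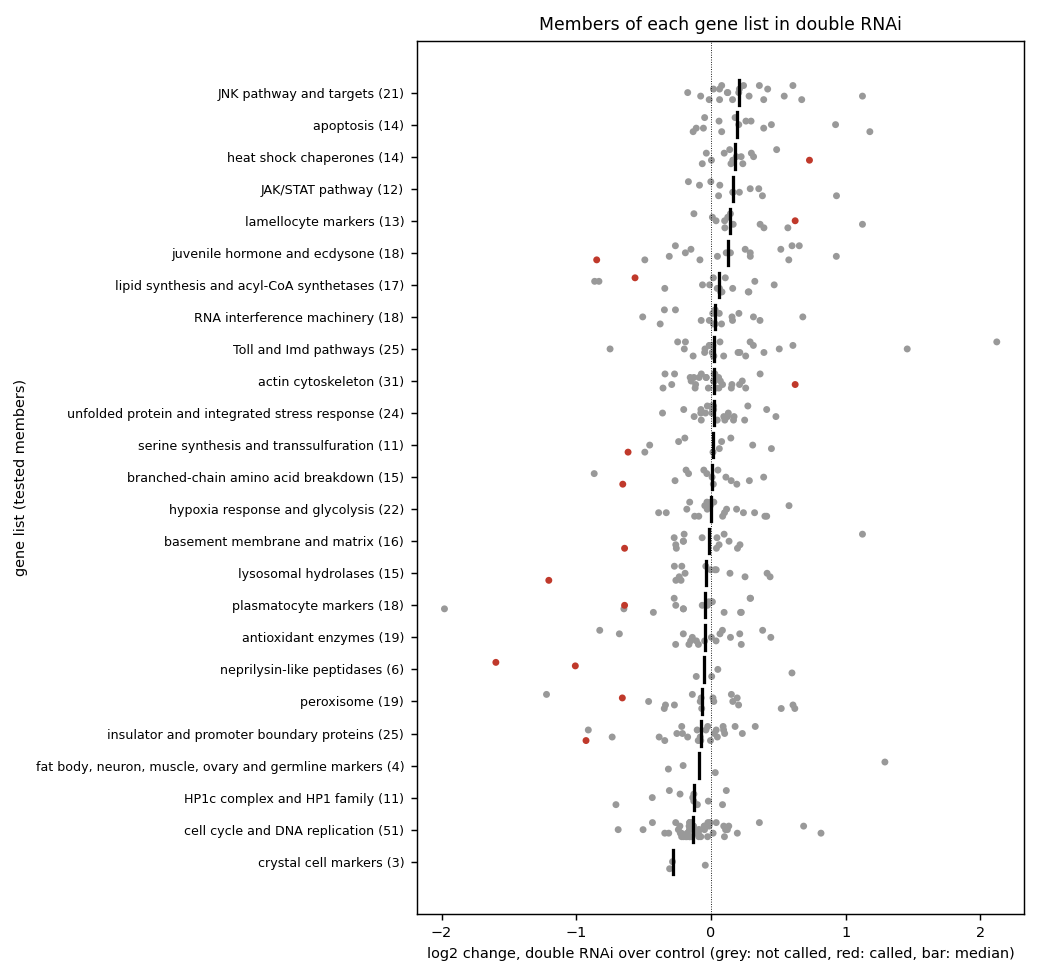
Log2 change in double RNAi over control of each tested member (points, red where called) in the lists with 3 or more tested members, ordered by their median (bar). The numbers in brackets count the tested members. Most medians lie near 0, the lamellocyte, JNK, heat shock, JAK/STAT and apoptosis lists have most members to the right, and the cell cycle list has most members slightly to the left.

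The position of the called genes was read from the order of genes in the annotation. By chromosome arm, the calls were 2 lower among 1258 tested genes on X and 2 lower among 1304 on 2L. They were 1 higher and 4 lower among 1502 on 2R, and 2 higher and 3 lower among 1411 on 3L. On 3R they were 4 lower among 1799, and on chromosome 4 they were 1 higher and 1 lower among 60. Over all 7377 tested genes 20 were called (0.271%), and these counts are too small to compare the arms. The nearest tested genes on each side gave 40 neighbours, of which 21 had the sign of their called gene and 2 were called themselves, the adjacent CG14523 and CG14527. Before adjustment 10 of the 40 had p under 0.05, including CG14523 and CG14527 as each other's neighbour, against 637 of all 7377 tested genes. Beside BEAF-32 lies kn, which encodes a transcription factor of blood and muscle development. It had 0.380, 0.312 and 0.695 CPM in control and 3.54, 4.21 and 7.43 CPM in double RNAi (log2 3.37, SE 1.14, adjusted p = 0.268, edgeR). Its groups did not overlap, but it was not called. The control values were near 0 and would not by themselves pass the filter on low counts. The gene was thus tested only through libraries where it was higher, so the gap between its groups is in part set by that filter.

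The calls rested to different degrees on single libraries. Leaving out each of the 6 libraries in turn left 9 to 23 calls, with 9 without control replicate 3, 10 without double RNAi replicate 2, 12 without double RNAi replicate 3, 15 without control replicate 2, 17 without control replicate 1 and 23 without double RNAi replicate 1. Calls held in all 6 of these fits for Nplp2, CG14523, CG3961, CG43293 and DnaJ-1, with highest adjusted p of 4.73e-05, 0.0114, 0.0217, 0.0170 and 0.0326. They also held under the other scalings, filters and tests that were tried. The call of CG15209 rested on double RNAi replicate 2 (adjusted p = 0.0548 without it) and that of Jheh1 on double RNAi replicate 3 (adjusted p = 0.0532 without it). Without control replicate 3 the adjusted p was 0.0629 for CG11077, 0.223 for shot and 0.129 for CG14527. These 3 genes also missed the threshold without double RNAi replicate 3 (CG11077, adjusted p = 0.0532), replicate 2 (shot, adjusted p = 0.218) and replicate 1 (CG14527, adjusted p = 0.0872), all by edgeR's test.

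The other 10 calls were lost in 3 to 5 of the 6 fits. The highest adjusted p reached by edgeR's test was 0.124 for Glt and 0.200 for Hexo1, both without double RNAi replicate 3. It was 0.143 for CR44029 without double RNAi replicate 2. It was 0.360 for CG34232, 0.304 for CG11899 and 0.291 for Karl without control replicate 1, and 0.404 for CG4210, 0.246 for CG15093, 0.243 for BEAF-32 and 0.189 for CG9328 without control replicate 3. The log2 changes of the called genes kept their sign in all 6 fits. The largest shift was in CG34232, from -1.01 to -0.68 without control replicate 1, the library that stood apart from the other controls in this gene.

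**Figure D5:**
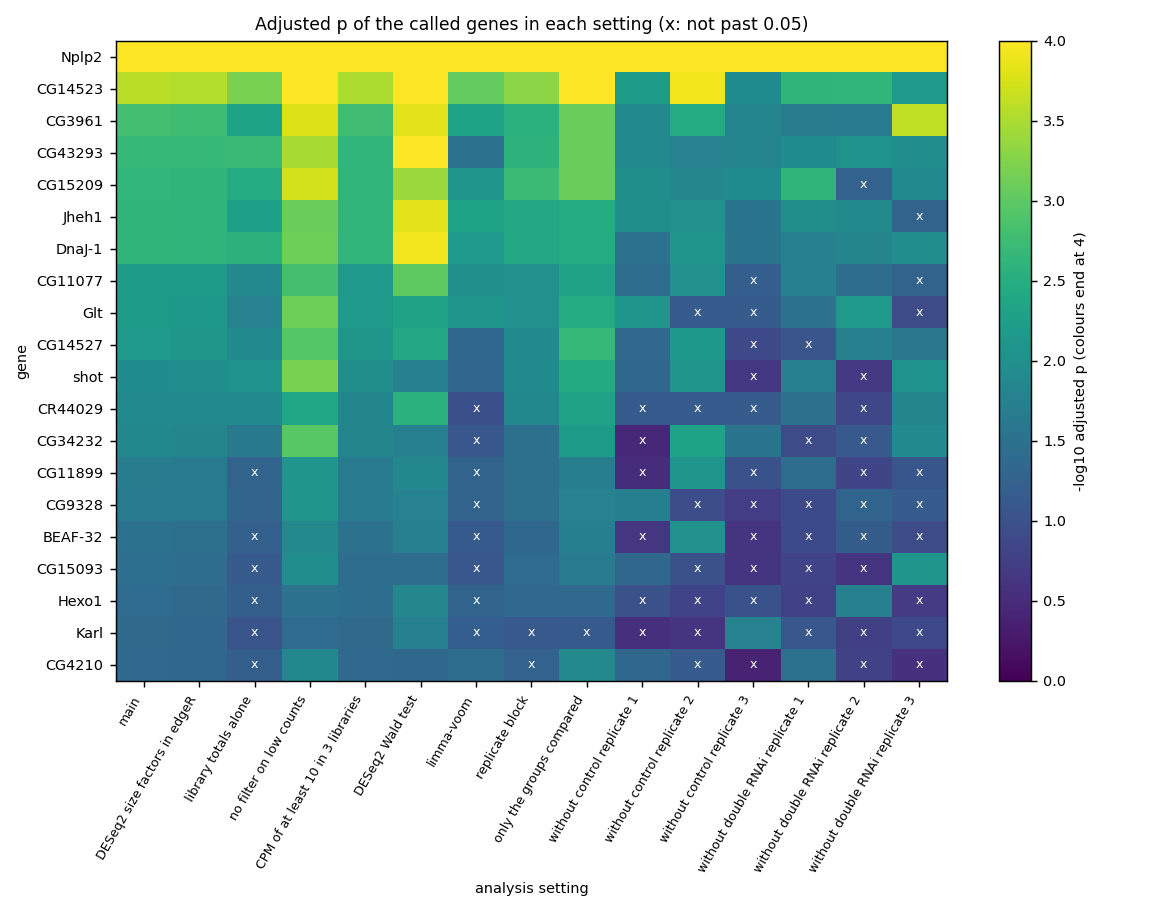
Adjusted p of the 20 called genes (rows) in each analysis setting (columns), as -log10 with colours that end at 4, where x marks a value not past 0.05. The rows of Nplp2, CG14523, CG3961, CG43293 and DnaJ-1 hold no x, and the marks gather in the lower rows and in the columns of single libraries left out.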

How the data were processed

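The values are raw read counts of each gene in each library, as the authors deposited them, without normalization. Alignment was done with STAR against dm3, per the submitters' processing notes. How reads were assigned to genes, with which annotation, and if molecular identifiers were collapsed is unstated there. An 8-base identifier can take 65536 forms, and 5 of the deposited counts were above that. Symbols, arms and strands are those of the table. The annotation BDGP6.54 (16567 symbols matched, 12672 by name and 3895 by synonym) is another build and served for names and neighbours, so no coordinates are printed.

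All 12 libraries entered 1 fit in R 4.3.3 with edgeR 4.0.16 (filterByExpr by group, minimum count 10, TMM, robust quasi-likelihood, 8 residual degrees of freedom), with group as the term and no block. P-values were adjusted over the 7377 tested genes. SE is the absolute log2 change over the square root of F. CPM uses TMM-scaled totals. The test was checked on simulated data.

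Members, lists and tests were chosen with earlier results of these data known. Genes named were the targets, all called genes, genes with adjusted p of 0.05 to 0.10 (up to 10 in each direction), the 5 largest uncalled changes in each direction with groups apart and a mean of at least 10 CPM, the HP1c list, up to 3 members of each other list by p, genes called in the direct tests, and neighbours of called genes. Further list genes are named where they had 0 counts, where they made up much of a summed level, or to complete a list.

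Alternatives were scaling by DESeq2's size factors or by library totals alone, no filter or a minimum of 10 CPM in 3 libraries, the tests of DESeq2 1.42.0 and of voom in limma 3.58.1, a replicate block, a fit of only the 6 libraries compared, a stricter threshold (0.01), and the omission of each library in turn.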

Additional observations from a re-analysis of the deposited data

How the results depend on the processing

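Of the counts of called genes in double RNAi against control (20, 4 higher and 16 lower), library totals alone gave 10 lower, DESeq2's test 8 higher (30 in all, including all 20), limma-voom 15 in all (12 shared) and a threshold of 0.01 gave 10 (2 higher, 8 lower). Without each library in turn the counts were 9 to 23, with 2 to 9 higher and 7 to 14 lower. The replicate numbers of the labels did not pair the samples (same-numbered deviations correlated at -0.03, 0.06 and 0.02), and with the replicate block 18 genes were called, without Karl and CG4210. Against row RNAi, no filter on low counts gave 3 calls, only the groups compared gave 2, and leaving out libraries 0 to 2, against 0. Against BEAF-32 RNAi (9 calls), library totals alone gave 19, no filter 23, DESeq2's test 24, and leaving out libraries 4 to 24. The interaction had 0 calls in every setting run, and it needs all 4 groups, so it was not run with only the groups compared. The causes were not tested. No called gene changed sign in any setting. The medians of the HP1c, heat shock, JNK, apoptosis, lamellocyte and cell cycle lists kept their sign in every setting run for lists (0.17 to 0.28 for heat shock, 0.16 to 0.26 for JNK, -0.18 to -0.07 for the cell cycle). Depth limits the precision of low genes: the median SE of the 2459 genes with the lowest levels was 0.471 on the log2 scale, with 2 called, and that of the 2459 with the highest was 0.144, with 11 called.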
